A study of Mus musculus with 18 samples.

Results

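The mitosis genes described here are 36 genes for the mitotic cyclins and their kinase, the Aurora and Polo-like kinases, the spindle checkpoint, the kinetochore, the mitotic spindle and the machinery of cell division. They were taken by name from 24537 genes listed in a table of RNA-seq read counts of mouse CD8+ T cells. All 36 were listed, and all 36 were among the 11651 genes with enough counts to be tested. The cells were naive CD8+ T cells that received CRISPR ribonucleoprotein with either a scrambled guide (WT) or a guide against Nur77 (KO), the nuclear receptor encoded by Nr4a1. All groups were then activated with anti-CD3/CD28 antibodies, so the untreated cells were activated cells too. Each genotype was cultured overnight without LCA (lithocholic acid, a bile acid), with 10 µM LCA or with 50 µM LCA, in the groups WT control, WT LCA10, WT LCA50, KO control, KO LCA10 and KO LCA50. Each of the 6 groups had 3 libraries. The KO cells were an edited population and not a clone. The labels do not say whether the libraries of a group came from separate mice or cultures, so the p-values below are set against variation among libraries that could be purely technical.

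During mitosis, Cdk1 bound to its B-type cyclins drives the cell into division, the spindle attaches to chromosomes at their kinetochores, and a checkpoint holds the anaphase-promoting complex in check until every chromosome is attached. Destruction of cyclin B and securin then lets the chromosomes part, and the midzone of the spindle directs the cut between the daughter cells. Activated CD8+ T cells divide rapidly, and in a cycling population these transcripts accumulate in G2 and M phase. Many of the genes are known to be held down outside that window by the MuvB complex, which binds a short element near the transcription start (the cell cycle genes homology region, or CHR), and to be raised in G2 by B-Myb and FoxM1. The factor NF-Y binds CCAAT boxes just upstream.

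The promoters of 8 members are shown to set members with matches to both elements (Ccnb2, Cenpa, Hmmr, Cdc20, Ube2c and Prc1) beside Ccnb1 and Nusap1. Ccnb1 had matches to the NF-Y box and no exact match to the CHR forms searched, and Nusap1 had no match to either. Other forms of the CHR were not searched. The 8 members are 5 genes that were lower at 50 µM LCA in one or both genotypes (Ccnb1, Ccnb2, Cenpa, Hmmr and Nusap1) and 3 that were not called in any comparison (Cdc20, Ube2c and Prc1). Each runs from 120 bases before to 30 bases after the annotated start, in the direction of the gene, from RefSeq on GRCm38.p6. Capitals mark exact matches to 2 elements. The CHR element was searched as TTTGAA and as its variant form TTCGAA, which reads alike on both strands, while the first form appears as TTCAAA when it lies on the other strand. The NF-Y box was searched as CCAAT, which appears on the other strand as ATTGG. The Ccnb1 window is chr13:100786457-100786606 (minus strand), Ccnb2 chr9:70421525-70421674 (minus), Cenpa chr5:30666766-30666915 (plus), Hmmr chr11:40733408-40733557 (minus), Nusap1 chr2:119618178-119618327 (plus), Cdc20 chr4:118437314-118437463 (minus), Ube2c chr2:164769809-164769958 (plus) and Prc1 chr7:80294331-80294480 (plus).
Ccnb1: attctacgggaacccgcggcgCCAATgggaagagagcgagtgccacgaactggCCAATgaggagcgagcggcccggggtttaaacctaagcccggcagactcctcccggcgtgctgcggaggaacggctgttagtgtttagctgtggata
Ccnb2: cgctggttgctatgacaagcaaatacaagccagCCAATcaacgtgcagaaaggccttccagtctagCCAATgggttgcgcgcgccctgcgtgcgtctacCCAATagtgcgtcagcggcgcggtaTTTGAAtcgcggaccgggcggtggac
Cenpa: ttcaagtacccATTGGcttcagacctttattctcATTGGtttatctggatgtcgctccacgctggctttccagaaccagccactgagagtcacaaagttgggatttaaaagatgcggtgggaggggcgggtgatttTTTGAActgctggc
Hmmr: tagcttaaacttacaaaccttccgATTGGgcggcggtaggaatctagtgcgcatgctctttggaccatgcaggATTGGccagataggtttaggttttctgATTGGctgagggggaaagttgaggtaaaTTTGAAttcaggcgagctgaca
Nusap1: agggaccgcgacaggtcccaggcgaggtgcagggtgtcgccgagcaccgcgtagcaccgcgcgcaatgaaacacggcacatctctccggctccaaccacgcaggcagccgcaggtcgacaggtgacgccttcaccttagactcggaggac
Cdc20: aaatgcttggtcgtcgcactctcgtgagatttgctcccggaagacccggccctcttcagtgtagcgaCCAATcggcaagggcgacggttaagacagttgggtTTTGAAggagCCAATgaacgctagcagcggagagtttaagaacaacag
Ube2c: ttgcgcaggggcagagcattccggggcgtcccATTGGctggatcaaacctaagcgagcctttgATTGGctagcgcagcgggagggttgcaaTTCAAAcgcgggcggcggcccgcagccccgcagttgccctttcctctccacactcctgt
Prc1: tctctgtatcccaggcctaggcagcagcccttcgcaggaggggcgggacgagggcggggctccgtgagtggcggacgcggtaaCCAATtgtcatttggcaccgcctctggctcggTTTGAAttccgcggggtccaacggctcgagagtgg

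Promoters of 30 of the 36 members were matched by symbol, over windows of 250 bases before to 50 after the start. A CHR element lay between 60 bases before and 50 bases after the start in 23 of the 30 genes (76.7%), against 6.79% of the 27025 genes in the table and 2 of 37 DNA replication genes (5.41%). At least 1 NF-Y box lay in the window of 23 of 30 members (76.7%), against 41.1% of all genes and 24 of 37 replication genes (64.9%). Members and replication genes thus lay closer together for the NF-Y box than for the CHR element. Both elements, the CHR near the start, occurred in 20 members (66.7%) and in 2.89% of all genes. In Ccnb2, the gene of cyclin B2, 3 NF-Y boxes lay 87, 54 and 21 bases before the start and a CHR 4 bases after it. The window of Ube2c held 6 NF-Y boxes, and its CHR began 29 bases before the start. No exact match to either element was found in Birc5, Nuf2 or Nusap1. The elements also occurred in members that were not called. Of the 18 members called lower at 50 µM over both genotypes, 16 had a promoter and 11 of these a CHR near the start, and of the 18 not called, 14 had a promoter and 12 a CHR. A match is a match of letters and not a measured binding site.

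**Figure D1:**
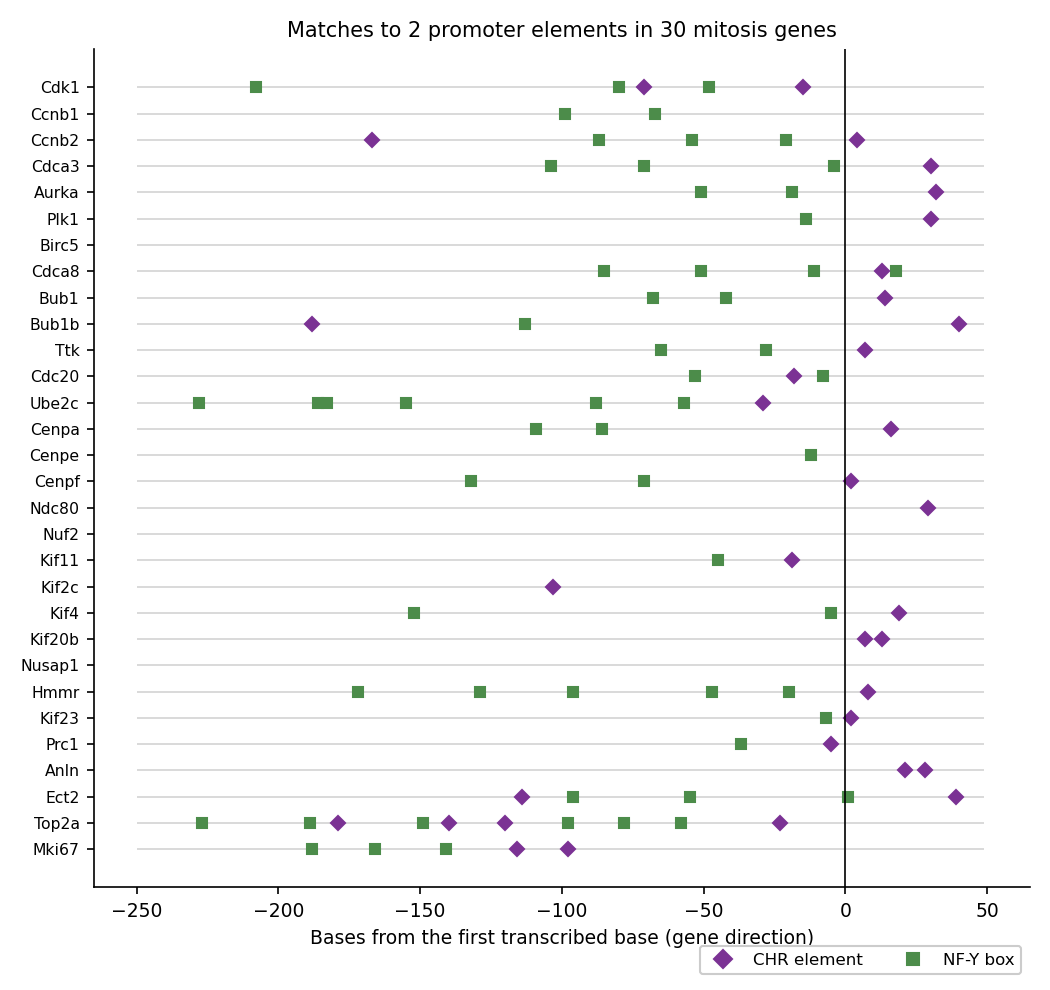
Positions of CHR elements (purple diamonds) and NF-Y boxes (green squares) in the promoters of 30 mitosis genes, in bases from the first transcribed base (0); 1 row per gene, with the window drawn as a grey line. The CHR elements gather around the start in 23 of the 30 genes, and most NF-Y boxes lie to their left.

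The libraries held 4113713 to 5945518 counts each. CD8 T cell markers such as Cd8a (498.7 to 665.7 CPM, the count scaled to the size of the library) were high in every library, and the summed markers of CD4 T cells, B cells, NK cells, myeloid cells and red cells with platelets each reached at most 65.9 CPM per library against 3699 to 4931 CPM for the 8 CD8 T cell markers. The CD8 T cell sum was 4824 to 4925 CPM in WT control and 4075 to 4654 in WT LCA50, and 4676 to 4736 in KO control and 3699 to 4628 in KO LCA50. Among these markers Cd8b1 fell in both genotypes at 50 µM LCA (log2 fold change ± SE, -0.58 ± 0.08 in WT and -0.35 ± 0.08 in KO) and Cd3g in WT (-0.34 ± 0.09). The CD4 T cell sum was higher without overlap at 50 µM, at 20.7 to 25.7 CPM against 12.6 to 17.97 in WT control and at 18.62 to 36.2 against 14.3 to 18.59 in KO control, and of its genes Zbtb7b rose over both genotypes (1.08 ± 0.36). The B cell sum was 4.75 to 5.72 CPM in KO LCA50 against 8.10 to 11.5 in KO control, where Cd79b fell (-1.07 ± 0.30), and 7.43 to 8.58 against 6.59 to 11.9 in WT. Of the 8 myeloid markers, 7 had enough counts to be tested and 3 of these (Ngp, S100a8 and S100a9) fell in WT LCA50. Lyz2 (0.38 ± 0.21), Csf1r (0.50 ± 0.62), Itgam (0.19 ± 0.50) and Cd14 (-0.94 ± 0.63) were not called. The sum of all 8 was 43.6 to 65.9 CPM in WT control, 46.4 to 52.4 CPM in WT LCA50 and 11.6 to 26.5 CPM in the KO groups. The part of these marker differences in the results was not tested. The transcript of the targeted gene, Nr4a1, was not called different between the guides at any dose (5.87 to 18.02 CPM over all 18 libraries). KO against WT was 0.14 ± 0.33 log2 (SE) without LCA, -0.16 ± 0.33 at 10 µM and -0.45 ± 0.33 at 50 µM. The counts thus do not check the genotype labels, and the position of the guide is not in the labels. The summed CPM of 1477 olfactory, vomeronasal and trace amine receptor genes, a background that T cells should lack, was 80.1, 108 and 50.4 in WT control and 122, 140 and 224 in WT LCA50. In KO control it was 96.8, 95.0 and 115, and in KO LCA50 it was 166, 47.8 and 93.4. KO LCA50 replicate 1 stood apart from the other libraries of its group, with a low level of mitosis genes and a high receptor background. Many KO counts, medians and calls at 50 µM are therefore also given without it. Others are given only with it and could rest on it. Among these are the KO dose order, the KO share of negative fold changes and the KO count of members without overlap. The KO count and median of all mitosis genes outside the members are also among them. In bulk RNA, fewer cells in mitosis and less mitotic RNA per cell cannot be told apart.

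Mitosis genes were lower at 50 µM LCA in both genotypes, by a modest amount. The 36 genes together held 9413, 10056 and 9557 CPM in the 3 WT control libraries, 9313, 9177 and 9364 CPM at 10 µM LCA, and 8730, 8267 and 8439 CPM at 50 µM LCA. All 3 WT libraries at 50 µM were below all the other WT libraries. In KO cells the sums were 9242, 9229 and 9229 CPM without LCA, 9123, 8889 and 8851 CPM at 10 µM, and 7201, 8696 and 8514 CPM at 50 µM. Every KO library at 50 µM was again below the others, and replicate 1 was far below its 2 fellows. The mean difference in log2 CPM over the members, 50 µM against control, was -0.205 in WT and -0.191 in KO, and -0.0962 in KO without KO LCA50 replicate 1.

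**Figure D2:**
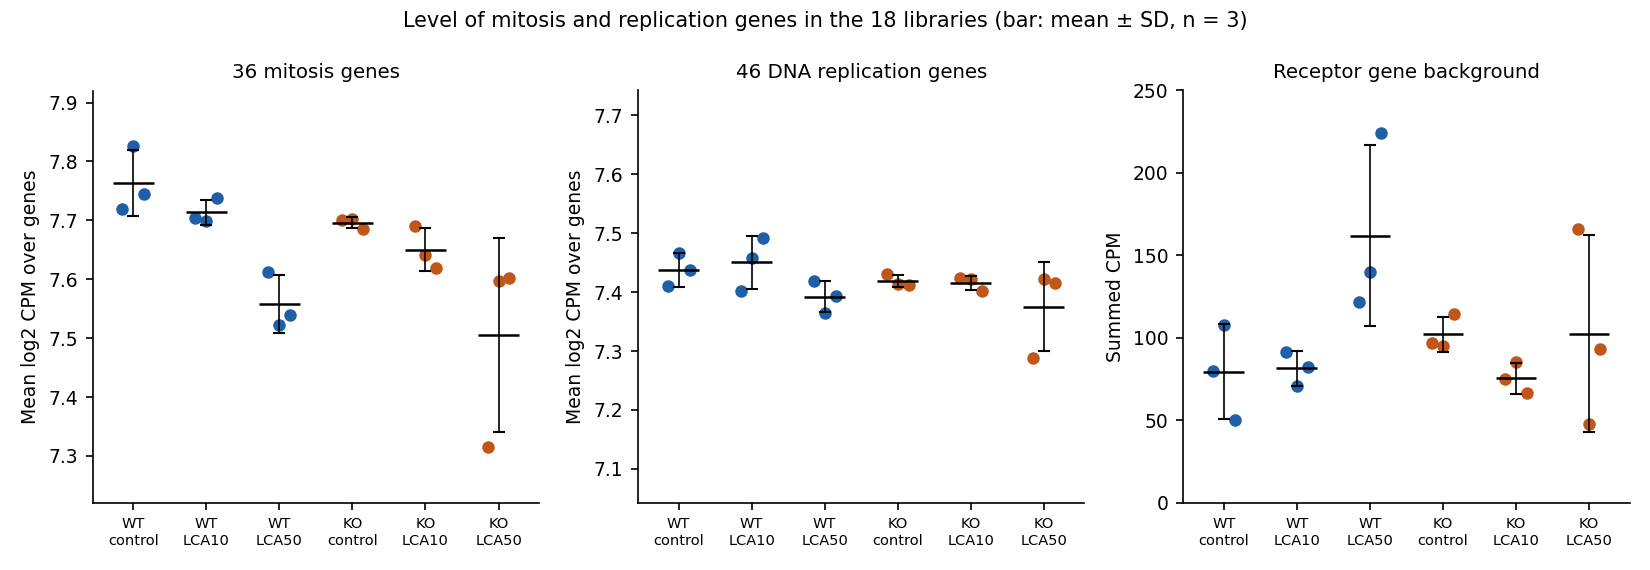
Mean log2 CPM over the 36 mitosis genes (left), over 46 DNA replication genes (middle, same axis span) and summed CPM of receptor genes (right) in the 18 libraries; points are libraries (blue WT, orange KO), bars the mean and SD of 3. The mitosis genes were lowest at 50 µM LCA in each genotype, KO LCA50 replicate 1 was the lowest library of all, and the receptor background was highest in WT LCA50 and in that KO library.

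Tested gene by gene with edgeR's quasi-likelihood test, and called at a Benjamini-Hochberg adjusted p under 0.05 over all genes tested, 9 of the 36 members fell in WT cells at 50 µM LCA and none rose, where 4.93% of all tested genes were called lower. In KO cells 8 fell and none rose, against 3.42% of all genes. The members were chosen with earlier results of these data known, so these shares describe the list and are no independent support. The median log2 fold change of the members was -0.19 in WT and -0.15 in KO, while that of all other tested genes was 0.01 in both. Without KO LCA50 replicate 1 the KO median of the members was -0.07. In WT 97.2% and in KO 94.4% of the members had a negative fold change, against 49% and 49.2% of all genes. All 3 treated libraries were below all 3 control libraries for 14 members in WT (13.7% of all genes) and for 13 in KO (11.9% of all genes). The members had many counts, with a median of 223 CPM against 36.1 for all tested genes, and their fold changes were more precise, with a median SE of 0.0897 against 0.155 in WT, so small changes could be called in them more readily than in a typical gene. Averaged over both genotypes, 18 of the 36 fell and none rose, against 8.66% of all genes. The counts depended on single libraries. In WT the count was 5 without WT control replicate 3, 4 without WT LCA50 replicate 2 and 3 without WT LCA50 replicate 3. The counts of all genes called lower fell as well, from 574 to 415, 331 and 306. With the receptor background as a covariate the member count was 2, Nusap1 and Hmmr, and 174 of all genes were called lower. In KO the member count was 3 without KO control replicate 1. It was 2 without KO control replicate 2, KO control replicate 3 or KO LCA50 replicate 1. The counts of all genes called lower went from 399 to 270, 243, 225 and 238 in that order. When only the KO control and KO LCA50 libraries were fitted, 2 members and 199 of all genes were called lower. With the covariate these were 12 and 557.

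The calls of the genotypes were partly the same genes. Ccnb1, Ccnb2, Cenpa and Aurkb were called in both, which is 44.4% of the WT calls and 50% of the KO calls. Nusap1, Hmmr, Birc5, Cdk1 and Kif2c were called in WT, and Bub1b, Kif20b, Mki67 and Kif11 in KO. A call in one genotype and not in the other does not show a difference, which was tested separately below. Averaging over the genotypes added Top2a, Plk1, Cenpe, Cenpf, Ccna2 and Ect2, and left out Mki67 (adjusted p = 0.0518, edgeR).

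**Figure D3:**
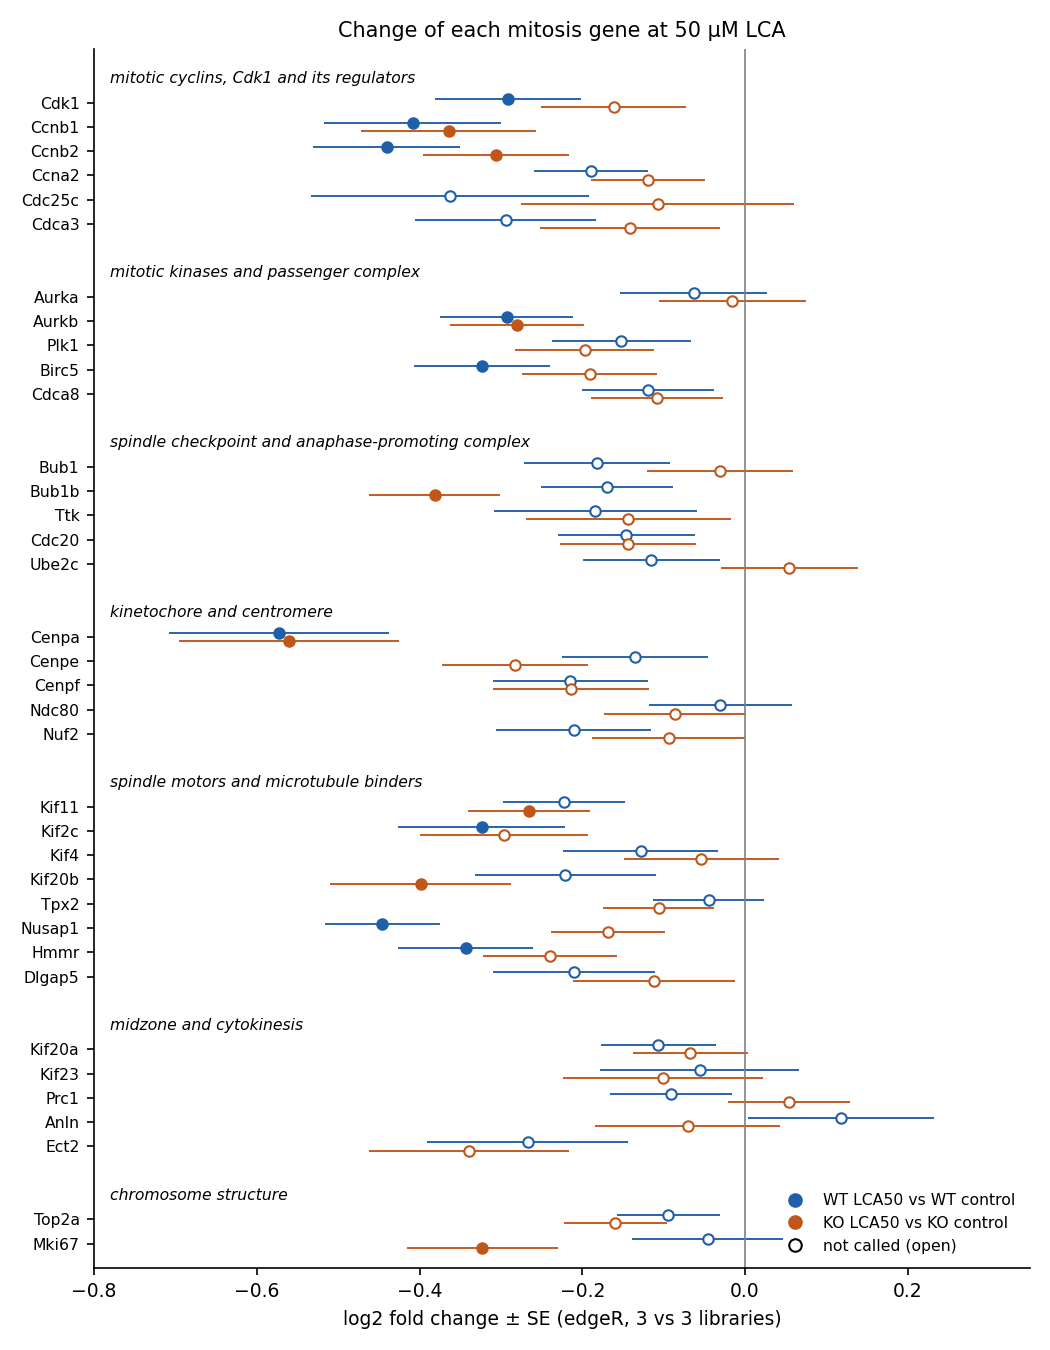
Log2 fold change of each of the 36 mitosis genes at 50 µM LCA against no LCA, grouped by role, with the SE from the edgeR fit (WT blue, KO orange); filled points were called at an adjusted p under 0.05. All but Anln in WT and Ube2c and Prc1 in KO lie to the left of 0, and Cenpa lies farthest left in both genotypes.

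Among the 6 genes of the mitotic cyclins, Cdk1 and its regulators, 3 fell in WT, 2 in KO and 4 over both genotypes. Ccnb1 encodes cyclin B1, the partner that Cdk1 needs to enter mitosis. Its level was 109.7, 103 and 112 CPM in the WT control libraries and 78.8, 86.8 and 78.4 CPM in WT LCA50, and it was 107, 113 and 102 CPM in KO control and 66.0, 87.0 and 96.0 CPM in KO LCA50. All treated libraries were below all control libraries in each genotype. The log2 fold change was -0.41 ± 0.11 (SE, adjusted p = 0.0138) in WT and -0.36 ± 0.11 (SE, adjusted p = 0.0349) in KO, and the KO value was -0.23 without KO LCA50 replicate 1. With 1 library left out, the Ccnb1 call was kept in 4 of 6 WT fits and 2 of 6 KO fits. Ccnb2, for cyclin B2, had 316, 298 and 309.9 CPM in WT control against 245, 212 and 224 in WT LCA50, and 276, 277 and 278 CPM in KO control against 179, 258 and 235 in KO LCA50. Here too the treated and control libraries did not overlap, and the 3 KO controls lay within 2 CPM of each other. The change was -0.44 ± 0.09 (SE, adjusted p = 0.00138) in WT, where it was called in 6 of 6 fits that left out 1 library. It was -0.31 ± 0.09 (SE, adjusted p = 0.0342) in KO, where it was -0.17 without KO LCA50 replicate 1 and the call was kept in 2 of 6 such fits. Cdk1, the kinase itself, went from 311, 327 and 309 CPM to 281, 243 and 249.98 CPM in WT (-0.29 ± 0.09, SE, adjusted p = 0.0365). In KO its libraries overlapped, at 321, 291 and 278 against 224, 299 and 271 CPM (-0.16 ± 0.09, SE, adjusted p = 0.334), with a change of -0.06 without KO LCA50 replicate 1. The WT call of Cdk1 was kept in 1 of 6 fits with a library left out. Ccna2, for cyclin A2, was called only over both genotypes (-0.15 ± 0.05, SE, adjusted p = 0.0292), in 7 of 12 fits with a library left out. Cdc25c, the phosphatase that activates Cdk1 and the member with the fewest counts, had a log2 fold change of -0.36 ± 0.17 in WT and -0.11 ± 0.17 in KO, and Cdca3, a trigger of mitotic entry, -0.29 ± 0.11 and -0.14 ± 0.11. Neither passed the test.

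Of the 5 genes of mitotic kinases and the chromosomal passenger complex, 2 fell in WT, 1 in KO and 3 over both genotypes. Aurkb encodes Aurora B, the kinase of the passenger complex, which corrects faulty attachments of chromosomes. Its level was 369, 349 and 377 CPM in WT control and 319, 282 and 293 CPM in WT LCA50, and 343, 326 and 341 CPM in KO control against 230.2, 317 and 283 CPM in KO LCA50. The groups did not overlap in either genotype, with a change of -0.29 ± 0.08 (SE, adjusted p = 0.0202) in WT and -0.28 ± 0.08 (SE, adjusted p = 0.0339) in KO. The KO value was -0.17 without KO LCA50 replicate 1, and the Aurkb call was kept in 2 of 6 WT fits and 1 of 6 KO fits with a library left out. Birc5, for survivin, which holds that complex at the centromere, had 453, 490.2 and 477 CPM in WT control and 428, 352 and 355 CPM in WT LCA50 (-0.32 ± 0.08, SE, adjusted p = 0.0111), and the call was kept in 4 of 6 fits. In KO it went from 429.8, 444 and 421 CPM to 309, 411 and 413 CPM without passing the test (-0.19 ± 0.08, SE, adjusted p = 0.19), and the change was -0.07 without KO LCA50 replicate 1. Plk1, the Polo-like kinase, was called over both genotypes alone (-0.17 ± 0.06, SE, adjusted p = 0.0435), and that call was kept in 3 of 12 fits with a library left out. Aurka, the Aurora kinase of the spindle poles, and a close relative of Aurkb, had values near 0, with -0.06 ± 0.09 in WT and -0.02 ± 0.09 in KO. Cdca8, for borealin of the passenger complex, had -0.12 ± 0.08 and -0.11 ± 0.08 and was not called.

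In the spindle checkpoint and anaphase-promoting complex group, 1 of 5 genes was called, in KO and over both genotypes. That was Bub1b, for the checkpoint protein BubR1. It had 299, 361 and 348 CPM in WT control and 307, 276 and 313 CPM in WT LCA50, where the groups overlapped (-0.17 ± 0.08, SE, adjusted p = 0.207). In KO control it had 361, 332 and 366 CPM and in KO LCA50 235, 273 and 304 CPM, with all treated libraries lower (-0.38 ± 0.08, SE, adjusted p = 0.00245). It was called in all 6 KO fits that left out 1 library, and without KO LCA50 replicate 1 its change was -0.29. The other 4 did not pass the test in any comparison. Bub1, the checkpoint kinase that partners BubR1, had -0.18 ± 0.09 in WT and -0.03 ± 0.09 in KO, and Ttk, the kinase Mps1, -0.18 ± 0.12 and -0.14 ± 0.13. Cdc20, which both activates the anaphase-promoting complex and is held by the checkpoint, had close values in the genotypes (-0.15 ± 0.08 and -0.14 ± 0.08). Ube2c, the ubiquitin-conjugating enzyme that serves that complex, had 399, 360.2 and 415 CPM in WT control, 377, 373 and 334 in WT LCA50, 397, 345 and 339 in KO control and 326, 418 and 377 in KO LCA50. Its libraries overlapped in both genotypes (-0.12 ± 0.08 in WT and 0.05 ± 0.08 in KO).

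Cenpa had the largest fold change of the 36 members in both genotypes. It encodes the histone H3 variant that marks the centromere. Its level was 304, 261 and 280.2 CPM in WT control and 232, 166 and 170.5 CPM in WT LCA50, and 289, 290.2 and 274 CPM in KO control and 148, 216 and 213 CPM in KO LCA50. No treated library reached a control library, and at 50 µM the gene stood at 0.672 of its control level in WT and 0.678 in KO. The log2 fold change was -0.57 ± 0.14 (SE, adjusted p = 0.0116) in WT and -0.56 ± 0.13 (SE, adjusted p = 0.016) in KO, and -0.41 in KO without KO LCA50 replicate 1, where it was still called (adjusted p = 0.0249, edgeR). With 1 library left out, the Cenpa call was kept in 4 of 6 WT fits and 4 of 6 KO fits. Of the other 4 kinetochore genes, Cenpe, the motor that carries chromosomes to the spindle's middle, and Cenpf, a large kinetochore protein, were called over both genotypes (-0.21 ± 0.06, SE, adjusted p = 0.0204 and -0.21 ± 0.07, SE, adjusted p = 0.0256), and kept the call in 9 and 8 of 12 fits with a library left out. Ndc80 and Nuf2, both parts of the complex that grips the microtubule, were not called in either genotype. Ndc80 had -0.03 ± 0.09 in WT and -0.09 ± 0.09 in KO, and Nuf2 -0.21 ± 0.10 and -0.09 ± 0.09.

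Among 8 spindle motors and microtubule binders, 3 fell in WT, 2 in KO and 5 over both genotypes. Nusap1, a protein that bundles spindle microtubules near chromosomes, had the smallest adjusted p of the members in WT. It was at 304, 325 and 295 CPM in WT control, 289.8, 257 and 287 CPM in WT LCA10 and 237, 227 and 215 CPM in WT LCA50, with the 50 µM libraries below all the others. Its change at 50 µM was -0.45 ± 0.07 (SE, adjusted p = 5.40e-05), it was called in all 6 fits with 1 library left out, and with the receptor background as a covariate it was -0.44 (adjusted p = 0.00143, edgeR). In KO it went from 265, 280.1 and 270.1 CPM to 236, 246 and 243 CPM, again without overlap but with a change of -0.17 ± 0.07 (SE, adjusted p = 0.166). Hmmr, a hyaluronan receptor that also organises spindle poles, had 205, 222 and 188 CPM in WT control and 149, 162 and 174 CPM in WT LCA50 (-0.34 ± 0.08, SE, adjusted p = 0.00646). It was called in all 6 fits with a library left out. In KO it had 184, 188 and 193 and 151, 173 and 155 CPM (-0.24 ± 0.08, SE, adjusted p = 0.0783). Both genotypes showed separate groups for Hmmr, but the KO change did not pass the test.

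Kif2c, a kinesin that takes microtubules apart at kinetochores, had 159, 179.7 and 180.2 CPM in WT control and 140.3, 132 and 143 CPM in WT LCA50 (-0.32 ± 0.10, SE, adjusted p = 0.0433). In KO it had 155, 148 and 159 CPM and 95.1, 134 and 147 CPM (-0.30 ± 0.10, SE, adjusted p = 0.0836), and the change was -0.14 without KO LCA50 replicate 1. The groups were separate in each genotype, and the WT call was kept in 1 of 6 fits with a library left out. Kif11, the kinesin that pushes the spindle poles apart, had 319, 377 and 337 and 274, 309 and 302 CPM in WT without and with 50 µM LCA (-0.22 ± 0.07, SE, adjusted p = 0.0578). In KO it had 319, 324 and 331 and 249, 283 and 278 CPM (-0.27 ± 0.07, SE, adjusted p = 0.0269), so the sizes were close and the calls fell on opposite sides of the threshold. Kif20b, a kinesin of late mitosis, had 120.5, 104 and 125 CPM in KO control and 71.0, 92.9 and 100.1 CPM in KO LCA50 (-0.40 ± 0.11, SE, adjusted p = 0.0242), and -0.22 ± 0.11 in WT. The KO calls of Kif11 and Kif20b were kept in 2 and 3 of 6 fits with a library left out, and their KO changes were -0.21 and -0.27 without KO LCA50 replicate 1. The last 3 of the group were not called: Tpx2, the activator of Aurora A, had -0.04 ± 0.07 in WT and -0.11 ± 0.07 in KO, the chromosome-bound kinesin Kif4 -0.13 ± 0.10 and -0.05 ± 0.09, and the spindle protein Dlgap5 -0.21 ± 0.10 and -0.11 ± 0.10.

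The 5 genes of the spindle midzone and cytokinesis had a median log2 fold change of -0.09 in WT and -0.07 in KO. None was called in either genotype, with 1 of 5 at an unadjusted p under 0.05 in each. Ect2, the activator of RhoA at the division plane, was called over both genotypes (-0.30 ± 0.09, SE, adjusted p = 0.0152), in 11 of 12 fits with a library left out. It had 106, 139.8 and 118 CPM in WT control and 100, 103 and 99.4 CPM in WT LCA50, and 109, 118 and 129 CPM in KO control and 68.6, 97.1 and 115 CPM in KO LCA50, where only KO LCA50 replicate 3 reached the controls. Prc1, the protein that cross-links midzone microtubules, had -0.09 ± 0.07 in WT and 0.05 ± 0.07 in KO. Anln, for anillin of the contractile ring, had 59.3, 74.3 and 64.9 CPM in WT control, 66.5, 72.9 and 76.1 CPM in WT LCA50, 66.4, 73.4 and 67.8 CPM in KO control and 59.8, 69.3 and 68.1 CPM in KO LCA50. It was the only member with a positive fold change in WT (0.12 ± 0.11, SE, adjusted p = 0.59), within the spread of its libraries. The midzone kinesins Kif20a (-0.11 ± 0.07 in WT and -0.07 ± 0.07 in KO) and Kif23 (-0.06 ± 0.12 and -0.10 ± 0.12) were not called.

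The 2 chromosome genes are often used as proliferation markers. Top2a, the topoisomerase that untangles sister chromatids and the member with the most counts, had 1111 ± 89.1 CPM (SD, n = 3) in WT control and 1040.5 ± 52.7 in WT LCA50, and 1074 ± 17.1 in KO control and 961 ± 33.2 in KO LCA50. It was called over both genotypes alone (-0.13 ± 0.04, SE, adjusted p = 0.0476), and that call was kept in 5 of 12 fits with a library left out. Mki67, for the Ki-67 antigen that coats mitotic chromosomes, had 503, 553 and 488 CPM in WT control and 477, 496 and 524 CPM in WT LCA50, which overlapped (-0.05 ± 0.09, SE, adjusted p = 0.819). In KO it had 469, 515 and 566 CPM and 363, 415 and 461 CPM, with all treated libraries lower (-0.32 ± 0.09, SE, adjusted p = 0.033). The KO call was kept in 2 of 6 fits with a library left out, and the KO change was -0.24 without KO LCA50 replicate 1. Per kilobase of annotated exon, the most abundant members were Cdc20 (187 CPM per kilobase), Ccnb2 (173) and Ube2c (142), and the least Cdc25c (7.48) and Anln (7.46). This length covers all annotated transcripts of a gene and not those expressed, so it sets levels side by side only roughly.

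**Figure D4:**
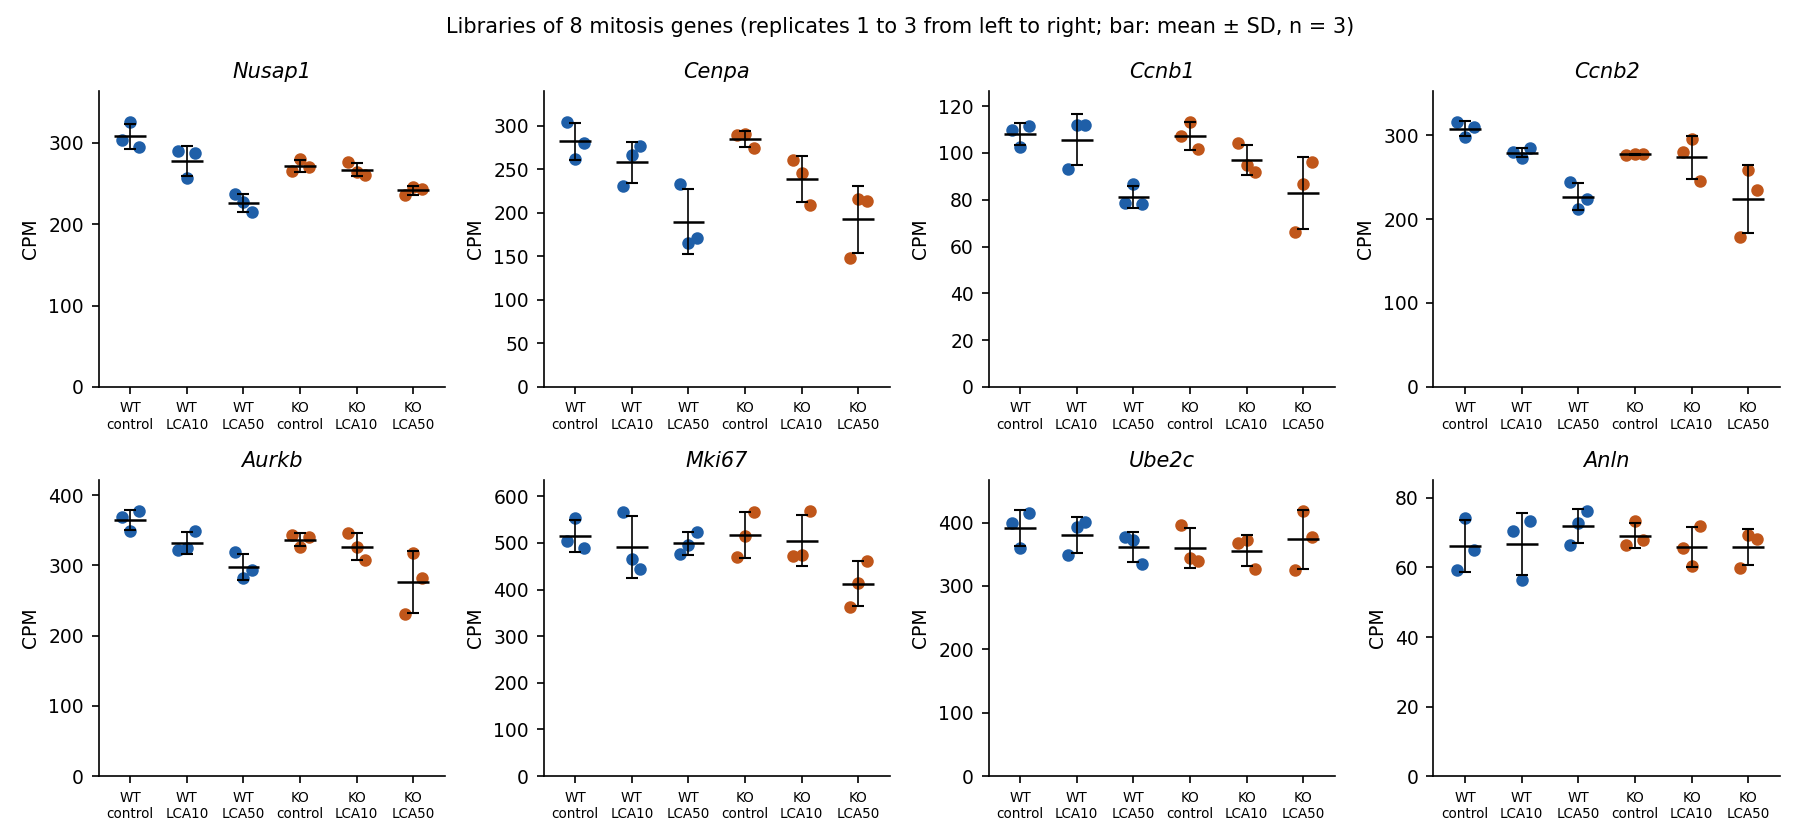
Levels (CPM) of 8 mitosis genes in each of the 18 libraries (blue WT, orange KO), with the mean and SD of 3 libraries per group; the vertical axes start at 0. Nusap1, Cenpa, Ccnb1, Ccnb2 and Aurkb had all 50 µM libraries below the control libraries of their genotype, Mki67 in KO alone, and Ube2c and Anln overlapped.

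At 10 µM LCA no member was called. In WT 0 of 36 passed edgeR's test (0.386% of all genes were called), 2 had an unadjusted p under 0.05, and DESeq2 called 0. In KO 0 of 36 passed (0.326% of all genes), 1 had an unadjusted p under 0.05, and DESeq2 called 0. The median log2 fold change was -0.06 in WT and -0.03 in KO, against 0.00 for all other genes in both. Those 2 members in WT were Nusap1 (-0.15 ± 0.07, SE, adjusted p = 0.619) and Ndc80 (0.18 ± 0.09, SE, adjusted p = 0.638), which went in opposite directions, and the member in KO was Kif20b (-0.25 ± 0.11, SE, adjusted p = 0.535).

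The middle dose stood between the other 2 for most members. Group means fell in the order control, 10 µM and 50 µM for 26 of 36 members in WT (72.2%, against 22.8% of all tested genes), for 25 in KO (69.4%, against 22.1%) and for 21 in both genotypes (58.3%, against 10.1%). A falling order needs a lower level at 50 µM than in control. At 50 µM 97.2% of members in WT and 94.4% in KO had a negative fold change, against 49% and 49.2% of all genes. Part of the gap to all genes thus restates the change at 50 µM. The doses share their control libraries, so the order is a description and was not tested. The orders in KO and in both genotypes are not given without KO LCA50 replicate 1. Comparing the doses directly in WT, 1 of 36 members fell, against 1.47% of all genes. That was Nusap1, with a log2 difference of -0.30 ± 0.07 (SE, adjusted p = 0.0161) between 50 µM and 10 µM. The Nusap1 call was lost without WT LCA10 replicates 1 or 3 or WT LCA50 replicates 2 or 3 (adjusted p = 0.0714 to 0.140, edgeR), with the receptor background as a covariate (0.105), and without WT LCA50 replicate 3 and KO LCA50 replicate 1 together (0.0556). The number of members called between the WT doses was 0 without WT LCA10 replicate 3, WT LCA50 replicate 2 or WT LCA50 replicate 3, and 4 without WT LCA50 replicate 1. Of all genes, 71, 57, 67 and 241 were then called lower, against 171 with all libraries. In KO 0 of 36 passed edgeR's test between the doses (1.38% of all genes), and DESeq2 called 0. An unadjusted p under 0.05 was found for 11 members, a count given without the share of all genes. The number of members called was 2 without KO LCA50 replicate 2 and 3 without KO LCA50 replicate 3. Of all genes, 167 and 139 were then called lower, against 107 with all libraries. The median difference between the doses was -0.14 in WT and -0.13 in KO, and -0.04 in KO without KO LCA50 replicate 1.

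**Figure D5:**
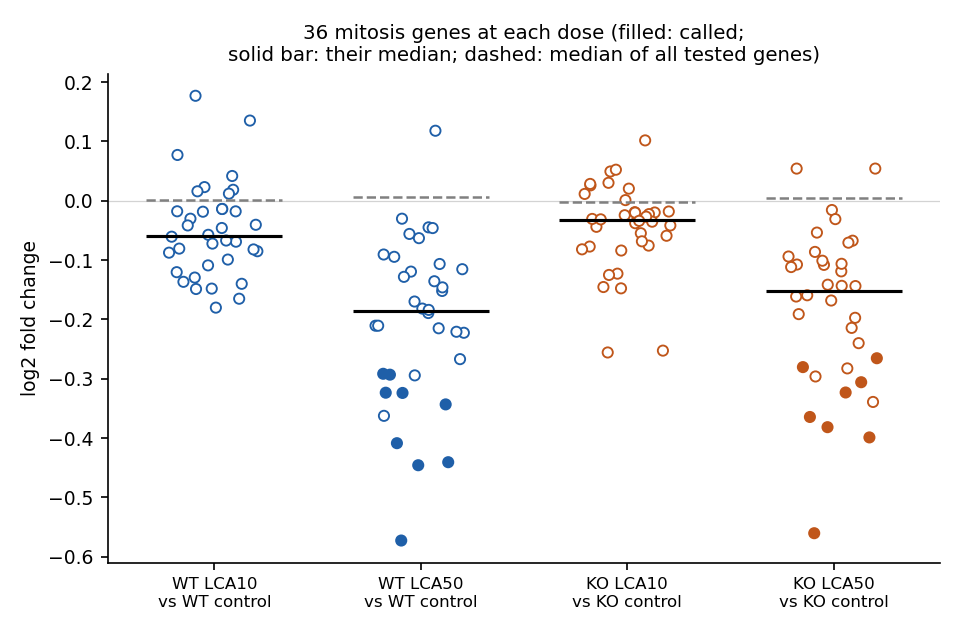
Log2 fold change of each of the 36 mitosis genes at 10 and 50 µM LCA against no LCA (WT blue, KO orange; filled points were called). Solid bars are the median of the members (-0.06, -0.19, -0.03 and -0.15 from left to right) and dashed bars the median of all tested genes, which lies at 0.

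Without LCA the guide made no called difference to mitosis genes. Of the 36, 0 passed edgeR's test for KO control against WT control (0.627% of all genes), 1 had an unadjusted p under 0.05, and DESeq2 called 0. That member was Nusap1 (-0.18 ± 0.07, SE, adjusted p = 0.354), with 265, 280.1 and 270.1 CPM in KO control against 304, 325 and 295 CPM in WT control. The 2 groups of Nusap1 libraries did not overlap. The median log2 difference of the members was -0.07, and 30 of the 36 were lower in KO. That count is given without the share of all genes lower in KO, and the members varied together across libraries. At 10 µM LCA 0 of 36 differed between the guides (0.661% of all genes), 2 had an unadjusted p under 0.05, and DESeq2 called 0, with a median of -0.05. At 50 µM LCA 0 of 36 differed (1.94% of all genes), 2 had an unadjusted p under 0.05, and DESeq2 called 0, with a median of -0.04. That median turned to 0.04 without KO LCA50 replicate 1 and was -0.12 with the receptor background as a covariate. The 2 members with such a p were Mki67 (-0.27 ± 0.09, SE, adjusted p = 0.152) and Cenpe (-0.21 ± 0.09, SE, adjusted p = 0.274), both lower in KO.

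The response to LCA was then compared between the guides in 1 interaction test. At 50 µM 0 of 36 members differed by edgeR (0% of all genes), 2 had an unadjusted p under 0.05, and DESeq2 called 0. Nusap1 had the largest positive difference, 0.28 ± 0.10 log2 (SE, adjusted p = 0.740 by edgeR), with -0.17 in KO and -0.45 in WT. Mki67 had the largest negative one (-0.28 ± 0.13, SE, adjusted p = 0.795). At 10 µM 0 of 36 differed (0% of all genes), 1 had an unadjusted p under 0.05, and DESeq2 called 0. That was Kif20b, with a difference of -0.39 ± 0.16. These tests do not show that the responses were alike.

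The members varied together across libraries. Over the 18 libraries the 630 pairs of members had a median Pearson correlation of log2 CPM of 0.514, and 95.7% of the pairs were positive. With the group means removed, the median was 0.361 and 85.7% were positive, so part of the shared variation lay between libraries of the same group. All pairs share the same libraries and scaling, and KO LCA50 replicate 1 is one of the 18. The SD of the members' mean log2 CPM was 0.164 in KO LCA50, against 0.00913 to 0.0559 in the other groups. The correlations are given neither without KO LCA50 replicate 1 nor for pairs of other genes. The members that followed the mean of the other 35 most closely were Birc5 (r = 0.958), Ccnb2 (0.921) and Kif2c (0.919), and those that followed it least were Anln (0.103), Kif4 (0.326) and Ube2c (0.392).

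Other mitosis genes were listed from textbook complexes. Of 105 such genes outside the 36 members, 10 fell and none rose in WT at 50 µM LCA, where 4.93% of all genes were called lower, 7 fell and none rose in KO, against 3.42%, and the medians were -0.12 and -0.11. The KO count and median of the 105 genes are given only with KO LCA50 replicate 1. Over both genotypes 17 fell and 1 rose, against 8.66% called lower. The gene that rose was Zwilch, of a kinetochore complex, named here after its value was seen (0.39 ± 0.10, SE, adjusted p = 0.00642). Among 38 further spindle and cytokinesis genes, 6 fell in WT and 3 in KO, and 1 in KO without KO LCA50 replicate 1. Cep55, a scaffold of the final cut between daughter cells, had 149 ± 2.39 CPM (SD, n = 3) in WT control against 108 ± 6.58 in WT LCA50, and 149 ± 6.77 in KO control against 114 ± 11.3 in KO LCA50. It fell in both (-0.46 ± 0.09, SE, adjusted p = 0.000617 and -0.39 ± 0.09, SE, adjusted p = 0.0044) and was the KO call that remained without that library. Fam64a (-0.41 ± 0.11, SE, adjusted p = 0.014) and Cks1b, a small subunit bound to Cdk1 (-0.41 ± 0.11, SE, adjusted p = 0.0158), fell in WT, and Aspm, a spindle pole protein (-0.36 ± 0.10, SE, adjusted p = 0.0306), and Kif22, a chromosome-bound kinesin (-0.31 ± 0.10, SE, adjusted p = 0.0489), fell in KO.

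Among 34 further kinetochore, checkpoint and centromere genes, 2 fell in WT and 1 in KO, shares near those of all genes. They were the checkpoint protein gene Mad2l1 (-0.30 ± 0.09, SE, adjusted p = 0.0254) and Cenpc1, which ties the kinetochore to centromeric chromatin (-0.42 ± 0.14, SE, adjusted p = 0.0432), and in KO Incenp, the scaffold that Aurora B binds (-0.29 ± 0.07, SE, adjusted p = 0.0109), which lost its call without KO LCA50 replicate 1 (adjusted p = 0.0807, edgeR). Of 17 condensin and cohesin genes, which shape and hold chromosomes, 2 fell in WT and 3 in KO, and 2 in KO without that library, where Ncaph lost its call. The cohesin subunit gene Stag2 was called in both (-0.29 ± 0.09, SE, adjusted p = 0.0455 and -0.31 ± 0.09, SE, adjusted p = 0.0402), and the condensin subunit genes Ncapg in WT (-0.25 ± 0.08, SE, adjusted p = 0.0453) and Ncapg2 (-0.38 ± 0.10, SE, adjusted p = 0.0185) and Ncaph (-0.29 ± 0.09, SE, adjusted p = 0.0458) in KO. None of the 16 subunit and regulator genes of the anaphase-promoting complex was called in either genotype by edgeR, with 3 in WT and 1 in KO at an unadjusted p under 0.05. Its abundant subunit gene Anapc5 had -0.08 ± 0.06 in WT and -0.01 ± 0.06 in KO.

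Among 31 genes of transcription factors and Cdk control, not all specific to mitosis, 4 fell in WT and 2 in KO. Of all genes, 4.93% in WT and 3.42% in KO were called lower. Both KO calls remained without KO LCA50 replicate 1. The largest change was that of Ccng2, an atypical cyclin found in arrested cells, with 122 ± 15.4 CPM (SD, n = 3) in WT control and 57.7 ± 1.93 in WT LCA50, and 126 ± 6.46 in KO control and 76.6 ± 7.37 in KO LCA50 (-1.08 ± 0.12, SE, adjusted p = 7.99e-08 in WT and -0.72 ± 0.11, SE, adjusted p = 6.73e-05 in KO). Btg2, an antiproliferative gene, also fell in both (-0.59 ± 0.16, SE, adjusted p = 0.0141 and -0.72 ± 0.16, SE, adjusted p = 0.00355). Cdc25b, a phosphatase that activates Cdk1 (-0.45 ± 0.08, SE, adjusted p = 0.000497), and Cdkn2d, an inhibitor of Cdk4 and Cdk6 (-0.46 ± 0.11, SE, adjusted p = 0.00477), fell in WT. The called genes thus included some known to promote and some known to restrain division. Foxm1 and Mybl2, the activators named above and singled out here after their values were seen, were not called: Foxm1 had 0.16 ± 0.09 in WT and -0.07 ± 0.09 in KO, and Mybl2 0.03 ± 0.10 and -0.06 ± 0.10.

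Genes of the earlier cell cycle were called in both directions. Of 12 G1 genes, cyclins and kinases with Myc, Mycn, Cdt1 and Skp2, 3 rose and 1 fell in WT, and 4 rose and 1 fell in KO. Of all genes, 3.66% in WT and 2.93% in KO were called higher. Without KO LCA50 replicate 1, the KO calls that remained were Mycn and Ccnd3. Mycn, a growth-promoting transcription factor, had 6.27 ± 1.36 CPM (SD, n = 3) in WT control against 19.4 ± 4.77 in WT LCA50 (1.63 ± 0.28, SE, adjusted p = 0.000207), and it rose in KO as well (1.43 ± 0.28, SE, adjusted p = 0.00141). Cdk6, a kinase of G1, rose in both (0.62 ± 0.13, SE, adjusted p = 0.00474 and 0.46 ± 0.13, SE, adjusted p = 0.0395), as did Ccnd3, for cyclin D3 (0.21 ± 0.07, SE, adjusted p = 0.046 and 0.31 ± 0.07, SE, adjusted p = 0.00286), and Ccnd2, for cyclin D2, rose in KO (0.30 ± 0.08, SE, adjusted p = 0.0147). Cdk2, the kinase of S phase entry, fell in both (-0.41 ± 0.09, SE, adjusted p = 0.00296 and -0.29 ± 0.09, SE, adjusted p = 0.0445). Of 46 DNA replication genes, 3 fell and 2 rose in WT, and none fell and 1 rose in KO, shares near or below those of all genes, with medians of -0.07 and -0.05. The thymidylate synthase gene Tyms (-0.31 ± 0.08, SE, adjusted p = 0.0164), the ribonucleotide reductase gene Rrm1 (-0.23 ± 0.07, SE, adjusted p = 0.0355) and Dut, for a nucleotide-cleaning enzyme (-0.25 ± 0.08, SE, adjusted p = 0.0425), fell in WT. Orc1, of the complex that marks replication origins, rose in both (0.44 ± 0.12, SE, adjusted p = 0.0176 and 0.44 ± 0.12, SE, adjusted p = 0.0209, and 0.0610 for the KO adjusted p without KO LCA50 replicate 1), and Pold1, for a replicative polymerase, in WT (0.26 ± 0.08, SE, adjusted p = 0.0351). The lists were described by their counts and medians, and the difference between them was not tested.

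Annotated exons of 10 members share bases with a gene on the other strand, and the sources used here do not say whether the counting used strand. They include Nusap1 (172 of 4059 exonic bases, shared with Oip5), Ccna2 (510 of 4083, with Exosc9), Kif20a (1271 of 4338, with Cdc23) and Ube2c (592 of 2600, with Tnnc2), so part of their counts could belong to the other gene. Ccnb1, Ccnb2, Cenpa and Aurkb, the members called in both genotypes, had no such overlap.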

How the data were processed

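Raw read counts per gene of 18 RNA-seq libraries, deposited by the authors, were used as they stood. Per the submitters' processing notes, STAR, HOMER and DESeq2 were used with GRCm38 (mm10); versions, strand setting and annotation are not given in the sources used here. Per the labels' protocols, RNA was made into ultra-low input cDNA libraries. Groups came from the labels. Counts were fitted in 1 model of 6 groups with edgeR 4.0.16 (limma 3.58.1, R 4.3.3; filterByExpr, TMM, robust quasi-likelihood F test), with Benjamini-Hochberg adjustment over 11651 genes in each of 12 contrasts. CPM are counts scaled to TMM-adjusted library sizes, and SE is the fold change over the root of F. The receptor background alone was scaled to the total counts of each library, and its 1477 genes are receptor genes with too few counts to be tested. The biological coefficient of variation was 0.0984. Counts of genes at an unadjusted p under 0.05 are not calls and are given without the share of all genes. The test was tried on simulated data. DESeq2 1.42.0, other filters and scalings, a receptor-background covariate and left-out libraries were alternatives. Replicate numbers did not pair libraries.

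The members, lists and contrasts were chosen with earlier results of these data known. Members called at 50 µM were named, with every other member by role, and of each further list up to 3 called genes per direction with the smallest p, or an abundant one. No 2 libraries of a group agreed within counting noise. Symbols matched GENCODE vM21 (GRCm38) for exon lengths and overlaps, and RefSeq for promoters.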

Additional observations from a re-analysis of the deposited data

How the results depend on the processing

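No called member changed direction under any alternative run. For WT cells at 50 µM LCA, where 9 members were called, the count was 2 with the receptor background as a covariate, and 3 to 9 with 1 library left out. For KO cells at 50 µM, where 8 were called, it was 2 with only the groups compared in the fit, 2 with WT LCA50 replicate 3 and KO LCA50 replicate 1 left out together, and 2 to 10 with 1 library left out. Averaged over genotypes, 18 became 10 without those 2 libraries, and 13 to 22 with 1 left out. Between the WT doses, 1 became 3 with DESeq2, 6 with no filter on low counts, 5 with only the groups compared, 0 with the covariate and 2 without those 2 libraries, and ranged from 0 to 4 with 1 library left out. Between the KO doses, 0 became 4 with no filter, and 0 to 3 with 1 library left out. KO against WT at 50 µM had 1 with no filter. All other counts at 10 µM, between guides and of the interaction stayed at 0.

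The median change of the members in WT at 50 µM was -0.13 with the covariate. It was -0.06 for KO at 10 µM and -0.07 between the WT doses with the covariate. With WT LCA50 replicate 3 and KO LCA50 replicate 1 left out together, the KO median was -0.07 against control and -0.04 against 10 µM, and the median of KO against WT at 50 µM turned from -0.04 to 0.03. The median difference in response was -0.08 at 50 µM and -0.01 at 10 µM with the covariate. With 1 library left out, it was -0.02 to 0.12 at 50 µM and -0.01 to 0.05 at 10 µM, and the KO median at 10 µM was -0.05 to 0.00. Counts of all genes called lower in WT at 50 µM went from 574 to 174 with the covariate, and in KO from 399 to 199 with only the groups compared and 237 without those 2 libraries. With 1 library left out they were 306 to 608 in WT and 225 to 444 in KO.

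Libraries with the same replicate number did not deviate together (27 correlations from -0.207 to 0.0864), so the numbers do not pair them. With the replicate number as a block, 9 members were called in WT, 8 in KO, 16 averaged over genotypes, 1 between the WT doses and 0 in each other comparison, and no member call was gained or lost in WT or KO. The median SE of a member was 0.0897 log2 in WT at 50 µM with 3 libraries against 3, which limits how small a change could be called. The counts of the further gene lists in KO without KO LCA50 replicate 1 were an alternative chosen after seeing the data.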
